A study of Sus scrofa with 8 samples.

Results

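Genes that carry retinol, oxidise retinaldehyde, bind retinoic acid or act as retinoid receptors were examined in backfat, the subcutaneous fat of the back, of KNP and YS pigs. The set comprised RBP4, ALDH1A1, ALDH1A2, ALDH1A3, CRABP1, CRABP2, RARA and RXRG, and every probe set annotated with exactly 1 of these symbols was taken. This gave 7 probe sets of 5 genes, out of 23999 probe sets and 6765 single-symbol genes on the array. RBP4 and ALDH1A1 had 2 probe sets each, CRABP2, RARA and RXRG had 1 each, and ALDH1A2, ALDH1A3 and CRABP1 had 0 and were not analysed here.

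The study asked how fat gene expression differs between these breeds. Total RNA from 4 samples of 7-month-old KNP pigs and 4 samples of 6-month-old YS pigs was hybridised to 8 Affymetrix GeneChip Porcine Genome Arrays, a 1-colour array with 1 signal value per probe set. No treatment or engineered genotype was named, and both breeds were raised in the same conditions. 1 YS label reads Yorkshire, KNP is not spelled out, sex is not given, and because all KNP samples were 1 month older, breed and age cannot be told apart. The labels do not say that each sample is a separate animal, so the errors and p-values cover only the spread from sample to sample, which may be technical.

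Retinol, or vitamin A, circulates bound to retinol-binding protein and is stored in fat as retinyl esters. Cells oxidise retinol to retinaldehyde and then, through the ALDH1A enzymes, to retinoic acid, which CRABP proteins carry. Retinoic acid activates RAR receptors, which bind DNA as heterodimers with RXR receptors, and RXR also pairs with PPARG, the main regulator of fat cell formation. Fat cells secrete RBP4, and in mice loss of Aldh1a1 protects against obesity caused by a fatty diet.

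The arrays had been scaled to a trimmed mean signal of 500, and median signals ran from 158.2 to 263. As a guide to background, the no-target level of an array was set at the 95th percentile of the signals of 23 controls that match no pig RNA, and it ran from 40.6 to 160.8. All 6 measured adipocyte markers (ADIPOQ, FABP4, LEP, LPL, LIPE and PNPLA2) lay above that level on all 8 arrays, and PLIN1 and CIDEC had no single-symbol probe set. LPL and LIPE also act on retinyl esters and were counted among the other genes of retinoid handling too. Arrays stood apart in 2 ways. The 3'/5' difference, the log2 signal of the 3' minus the 5' control probe sets of actin, GAPDH and EF1A, was 8.54 in KNP replicate 1, 5.88 in KNP replicate 2 and 4.40 in YS replicate 4, and between 2.12 and 3.17 on the other 5 arrays. The summed signal of 10 skeletal muscle genes was 70804 in KNP replicate 2 and between 416.9 and 1118 elsewhere.

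Of the 5 member probe sets tested, 0 passed an adjusted p of 0.05 in limma, and neither did any of the 17999 probe sets tested (0% called). CRABP2 had the lowest KNP level relative to YS, 3.28-fold lower on the log2(signal + 16) scale. For RBP4, RXRG and the brighter probe set of ALDH1A1 the means of the breeds differed by no more than 1.05-fold, with wide intervals. At an unadjusted p under 0.05, 1 of the 5 probe sets was called, CRABP2, against 2.84% of all probe sets tested and 1.35% called with lower signal in KNP. No member had KNP and YS signals that were wholly separate, which was so for 1.96% of all probe sets tested. RARA and the other probe set of RBP4 were among the 25% with the lowest mean, and were left out of the test.

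**Figure D1:**
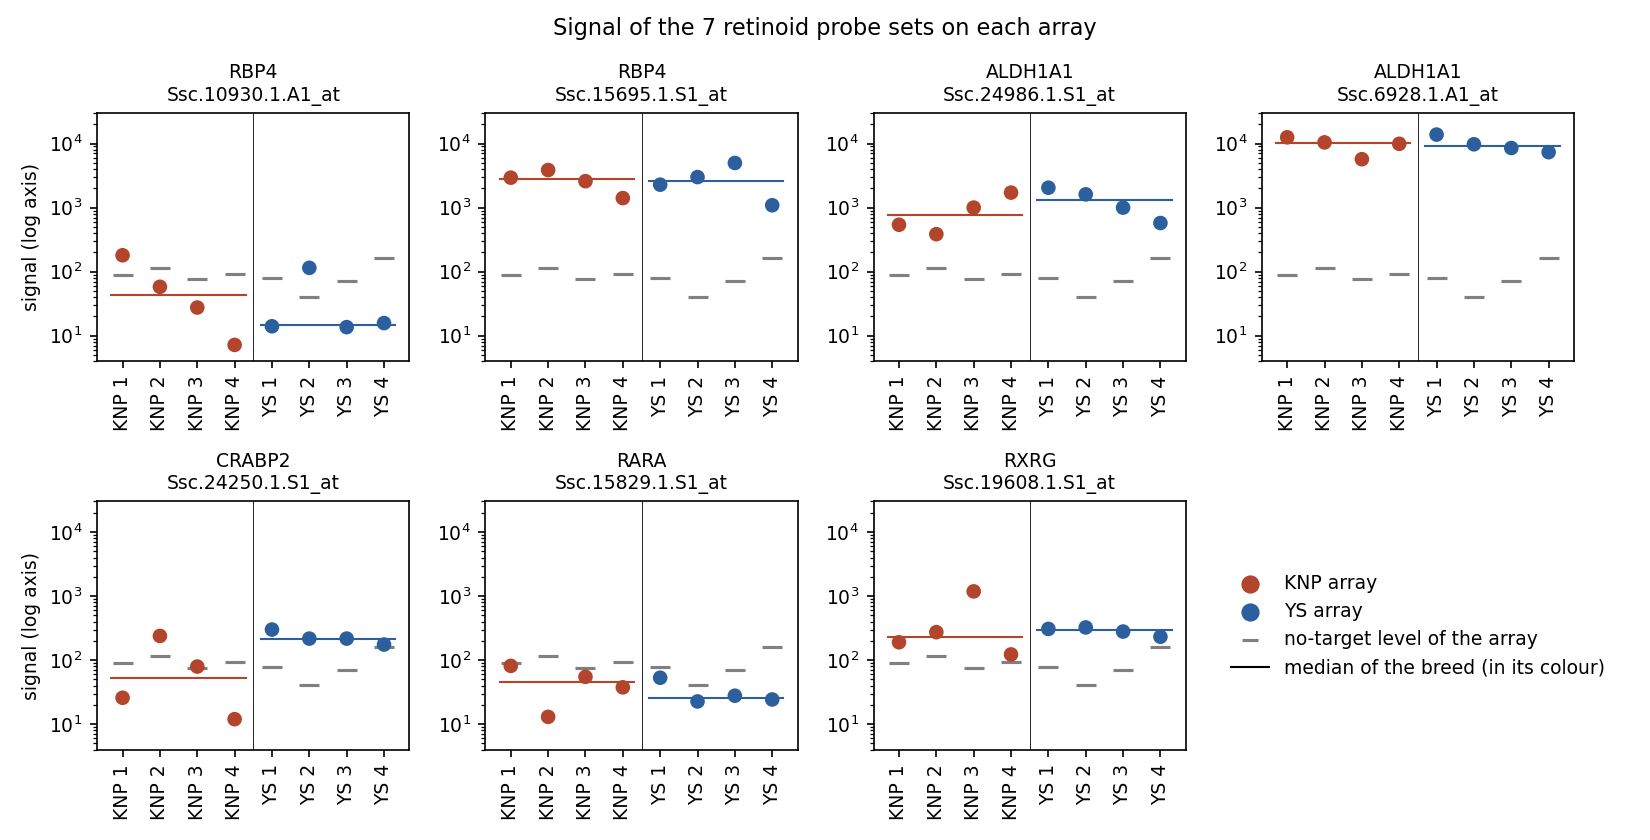
Signal on a log axis for each of the 7 probe sets on each of the 8 arrays, with the median of each breed as a line and the no-target level of the array as a grey dash. CRABP2 was between 175.2 and 300.6 on the YS arrays and spread from 12 to 238.8 on the KNP arrays, while RARA lay below the no-target level on every array.

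CRABP2 encodes cellular retinoic acid-binding protein 2, which delivers retinoic acid to RAR in the nucleus. Its signal (Ssc.24250.1.S1_at) was 300.6, 216.9, 217 and 175.2 in YS replicates 1 to 4, and 25.8, 238.8, 79.4 and 12 in KNP replicates 1 to 4. KNP replicates 1, 3 and 4 lay below all YS arrays, and KNP replicate 2 lay above 3 of the 4. All 4 YS values exceeded the no-target level, although in YS replicate 4 it was 160.8, close to the signal. Among the KNP arrays, replicates 2 and 3 exceeded it, replicate 3 narrowly, against a level of 76.1. On the log2 scale the KNP mean was 6.19 ± 1.41 and the YS mean 7.90 ± 0.30 (SD, n = 4). The difference was -1.71 ± 0.62 (SE) with a 95% interval from -3.11 to -0.32, an unadjusted p of 0.0214 and an adjusted p of 0.99984 in limma. The interval corresponds to a YS level between 1.25 and 8.62 times that of KNP. In whole tissue, fewer cells that express a gene and less RNA per cell cannot be told apart.

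Single arrays set the size of the CRABP2 difference but not its sign. It was -2.31 without KNP replicate 2, the array with the muscle signal, and -1.25 without KNP replicate 4, the lowest of all. When the arrays with the 3 highest 3'/5' differences were left out it was -2.32, with an unadjusted p of 0.00532 and an adjusted p of 0.470 in limma. The 2 remaining KNP arrays were then below the 3 remaining YS arrays. With 2 KNP values under the no-target level the size also followed the constant added before the log, at -2.14 with 1 and -1.13 with 64.

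Several marker lists lay on the same side as CRABP2, and others on the opposite side. Of all 17999 probe sets tested, 9016 were lower in KNP. All 7 skeletal muscle markers tested were higher in KNP, most of them brightest in KNP replicate 2. Of 6 smooth muscle and pericyte markers, 5 were higher in KNP. All 8 measured fibroblast and adipocyte progenitor markers were lower in KNP, with a median log2 difference of -0.49, and 0 of them passed. All 8 lay above the no-target level on at least 6 arrays, and 7 of them, among them COL1A2, DCN and LUM, did so on all 8 arrays. Their summed signal ran from 26871 to 52702 in KNP and from 28375 to 67447 in YS. KNP replicate 2, the KNP array with the highest CRABP2, had the highest sum of that breed, and most of it was DCN. The median of the markers around their own means was -0.23 there, -0.02 in KNP replicate 1, -0.64 in KNP replicate 3 and -0.16 in KNP replicate 4. All 6 measured T and NK cell markers were also lower in KNP, 0 of them past the test, with a summed signal from 491.6 to 1842 in KNP and from 916.8 to 2683 in YS. KNP replicate 4, the array with the lowest CRABP2, had the highest of these sums in KNP. The 3 measured mesothelium markers, KRT8, KRT18 and WT1, had lower means in KNP as well, 2 of them tested and 0 past the test, with KRT18 below the no-target level on all 8 arrays and sums from 108.6 to 522.6 in KNP and from 200.6 to 722.6 in YS. The sum of 5 markers of keratinocytes, the main cells of the epidermis, ran from 568.2 to 1663 in KNP and from 571.4 to 1258 in YS. Of these 5, KRT10 exceeded the no-target level on all 8 arrays, TRIM29 on 5, SFN on 3, KRT1 on 2 and DSP on 1, and KRT5 and KRT14 had no single-symbol probe set. The part of these cells in the CRABP2 values was not tested.

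RBP4, the carrier of retinol in blood and a product of fat cells, had nearly equal means in the breeds. Its main probe set (Ssc.15695.1.S1_at) read 2934, 3863, 2587 and 1407 in KNP replicates 1 to 4. In YS replicates 1 to 4 it read 2280, 2996, 4974 and 1089. The highest and the lowest array were both YS, and the breeds were interleaved in between. The log2 means were 11.32 ± 0.61 for KNP and 11.28 ± 0.91 for YS (SD, n = 4), a difference of 0.04 ± 0.49 (SE). The 95% interval, from -1.06 to 1.14, holds KNP levels from 0.479 to 2.20 times those of YS, so 2-fold differences either way were within it. The sign turned to -0.35 without YS replicate 4, the dimmest array, and to -0.16 without KNP replicate 2, and the difference was 0.37 without YS replicate 3, the brightest. When the arrays with the 3 highest 3'/5' differences were left out it was -0.76, with an unadjusted p of 0.138 and an adjusted p of 0.689 in limma.

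The other RBP4 probe set (Ssc.10930.1.A1_at) was near the background on most arrays. It exceeded the no-target level in KNP replicate 1, at 180.1, and in YS replicate 2, at 114.7, and lay below it on the other 6 arrays, between 7.18 and 58. Its 3 brightest arrays, KNP replicate 1, YS replicate 2 and KNP replicate 2, were also among the 4 brightest of the main probe set, but YS replicate 3, the highest there, read 13.6 here. It adds no breed comparison for RBP4, since most of its values sit in the background.

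ALDH1A1, a retinaldehyde dehydrogenase that makes retinoic acid, was measured by 2 probe sets, both above the no-target level on all 8 arrays. The brighter probe set (Ssc.6928.1.A1_at) read 12521, 10432, 5698 and 9917 in KNP replicates 1 to 4 and 13804, 9744, 8522 and 7332 in YS replicates 1 to 4, a range of 2.20-fold within KNP and 1.88-fold within YS. This was the member with the least spread within breeds, with a pooled SD of 0.44 on the log2 scale, below which 37.8% of the probe sets tested lay. The log2 means were 13.18 ± 0.49 and 13.23 ± 0.39 (SD, n = 4), a difference of -0.05 ± 0.33 (SE) with a 95% interval from -0.78 to 0.69. A KNP level below 0.582 or above 1.61 times that of YS was outside this interval. Its sign turned to 0.19 without KNP replicate 3, the lowest array, and to 0.13 without YS replicate 1, the highest, and it was -0.48 with the arrays of the 3 highest 3'/5' differences left out.

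The second ALDH1A1 probe set (Ssc.24986.1.S1_at) read 540, 384.4, 999.9 and 1715 in KNP replicates 1 to 4 and 2044, 1609, 999.4 and 574.6 in YS replicates 1 to 4. Its log2 means were 9.63 ± 0.94 and 10.22 ± 0.80 (SD, n = 4), a difference of -0.59 ± 0.54 (SE) with a 95% interval from -1.80 to 0.62 and an adjusted p of 0.99984 in limma. The breeds overlapped, with the highest array in YS and the 2 lowest in KNP.

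The ALDH1A1 probe sets disagreed on which arrays were high. Both put YS replicate 1 first, but KNP replicates 1 and 2, next on the brighter probe set, were the 2 lowest on the dimmer one. These were the arrays with the 2 largest 3'/5' differences, and the next lowest on the dimmer probe set, YS replicate 4, had the third largest. The log2 gap between the probe sets, taken around its mean over the 8 arrays, was -1.21 in KNP replicate 1, -1.42 in KNP replicate 2 and -0.36 in YS replicate 4, and between 0.21 and 0.79 on the other 5 arrays. With the 3'/5' difference of each array in the fit the breed difference of the dimmer probe set was -0.21 ± 0.44 (SE), and without those 3 arrays it was -0.18. It was -0.26 without KNP replicate 2 and -0.97 without KNP replicate 4. The part of RNA quality in these values was not tested beyond that.

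**Figure D2:**
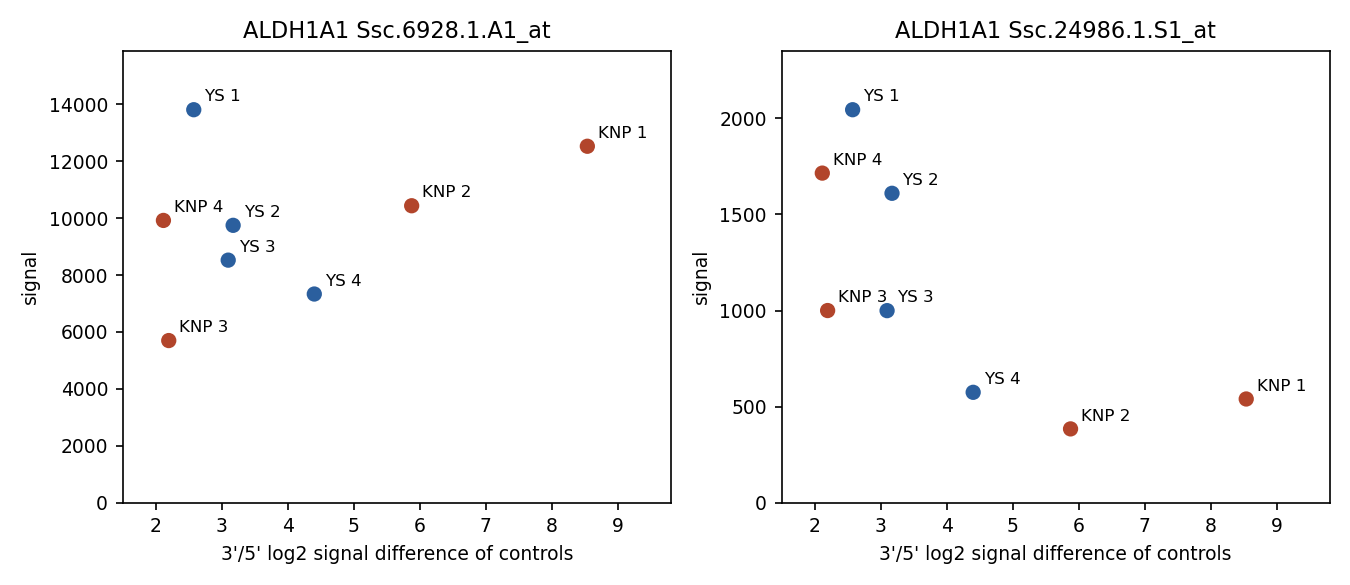
Signal of the 2 ALDH1A1 probe sets (vertical axes, from 0) against the 3'/5' log2 signal difference of the control genes on the same array, with KNP arrays in red and YS arrays in blue. In the right panel the 3 arrays with a 3'/5' difference above 4 had the 3 lowest signals, at 574.6 or less, whereas in the left panel KNP replicates 1 and 2 were behind only YS replicate 1.

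Of the receptors, RXRG, one of the RXR partners and in mammals best known from skeletal muscle and brain, was nearly constant in YS and scattered in KNP. Its signal (Ssc.19608.1.S1_at) was 307.1, 324.1, 279.5 and 232 in YS replicates 1 to 4, a range of 1.40-fold. In KNP replicates 1 to 4 it was 190.1, 273.4, 1185 and 122.8, a range of 9.65-fold. KNP replicate 3 was above all other arrays, the other 3 KNP arrays were below 3 of the 4 YS arrays, and all 8 values exceeded the no-target level. The log2 means were 8.30 ± 1.36 and 8.23 ± 0.20 (SD, n = 4), a difference of 0.08 ± 0.59 (SE) with a 95% interval from -1.26 to 1.41. The sign rested on single arrays: without KNP replicate 3 the difference was -0.57, with an unadjusted p of 0.116 and an adjusted p of 0.99993 in limma. Without YS replicate 4 it was -0.01, and without KNP replicate 4 it was 0.47.

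The summed signal of the skeletal muscle markers was 687.9 in KNP replicate 3, where RXRG read 1185. It was 70804 in KNP replicate 2, where RXRG read 273.4. KNP replicate 3 had the highest sums of the adipocyte markers, 110140 against 74060 to 97376 in YS, and of 6 smooth muscle and pericyte markers, 26845 against 13624 to 17540 in YS. The other KNP arrays ran from 80016 to 89773 and from 14234 to 21689. The markers of these lists did not all move with their sums. ADIPOQ, LIPE, PNPLA2, ACTA2, TAGLN and CNN1 were the highest of all arrays in KNP replicate 3. LEP, at 1229.5, and RGS5, at 507, were the lowest of all arrays there, and FABP4, LPL, PDGFRB and DES lay in between. KNP replicate 3 also had the highest sum of 2 Schwann cell and nerve markers, MBP and S100B. It was 2443 against 812.5 to 1296 in YS and 1031 to 1443 on the other KNP arrays. The sum of 8 endothelial markers was highest there too, at 21449, of which PECAM1 made up 11212. It ran from 15016 to 16366 in YS and from 11706 to 20858 on the other KNP arrays. KNP replicate 4, the array with the lowest RXRG, had the next highest endothelial and smooth muscle sums, 20858 and 21689. Its adipocyte and nerve marker sums were 80016 and 1136. The part of these cells in the RXRG value was not tested.

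RARA, the retinoic acid receptor with the widest tissue distribution, was not above the no-target level on any of the 8 arrays. Its signal (Ssc.15829.1.S1_at) was between 13 and 81.4 in KNP and between 22.7 and 53.1 in YS, and no direction between breeds was read from it.

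**Figure D3:**
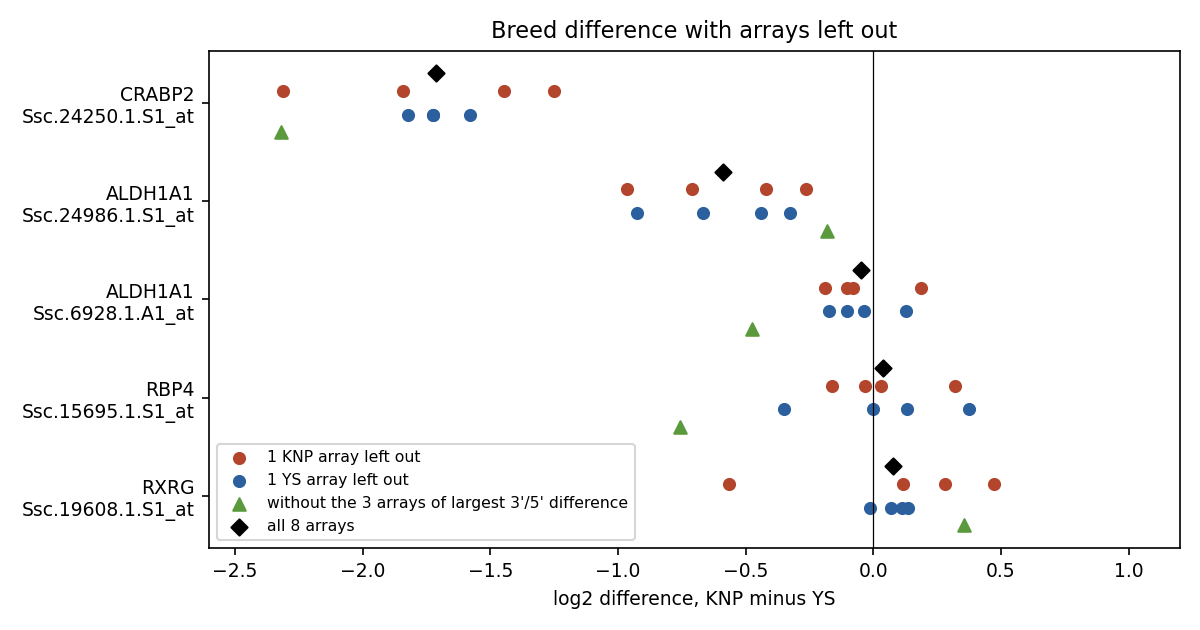
Log2 difference, KNP minus YS, of the 5 tested member probe sets with all 8 arrays (diamonds), with each array left out in turn (circles) and with the arrays of the 3 highest 3'/5' differences left out (triangles). All points of CRABP2 lie between -2.32 and -1.25, whereas those of RBP4, RXRG and the ALDH1A1 probe set Ssc.6928.1.A1_at fall on both sides of 0.

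The spread of the members within breeds was larger than that of most probe sets, the brighter ALDH1A1 probe set excepted. The pooled SD exceeded that of 84.9% of the probe sets tested for CRABP2, 82.4% for RXRG, 76.7% for the dimmer ALDH1A1 probe set and 70.7% for RBP4. The median SE of the member differences was 0.54, against 0.37 over all probe sets tested.

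Other genes of retinoid handling were taken from 9 lists with 56 genes, chosen with earlier results of these data known. Of these, 28 had a single-symbol probe set, 24 passed the filter on low values, and 0 passed the test in either direction. There were 15 higher and 9 lower in KNP, with a median log2 difference of 0.10 and a median size of 0.26, against -0.0010 and 0.24 over all probe sets tested. At an unadjusted p under 0.05 there were 0, against 2.84% of all probe sets tested, and all 24 intervals held 0. That count was 3 with the trend and robust variance, where 474 of all 17999 probe sets tested were called. It was 2 without YS replicate 4, where 884 of the 17999 were called. With the arrays of the 3 highest 3'/5' differences left out it was 2, against 1516 of the 17999. In the other alternatives it was 0 or 1. The KNP and YS signals were wholly separate for 1 gene, the lipoprotein lipase LPL, named for that separation after its values were seen, which is 4.17% of the 24 against a background of 1.96%. The other LPL probe set overlapped, from 1944 to 5196 in KNP and from 2027 to 6020 in YS. A second probe set of FABP5, which binds fatty acids and retinoic acid, was wholly separate the other way, from 4204 to 5428 in KNP and from 3121 to 4166 in YS, and did not pass, with an adjusted p of 0.99984 in limma. The FABP5 probe set with the highest mean overlapped.

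**Figure D4:**
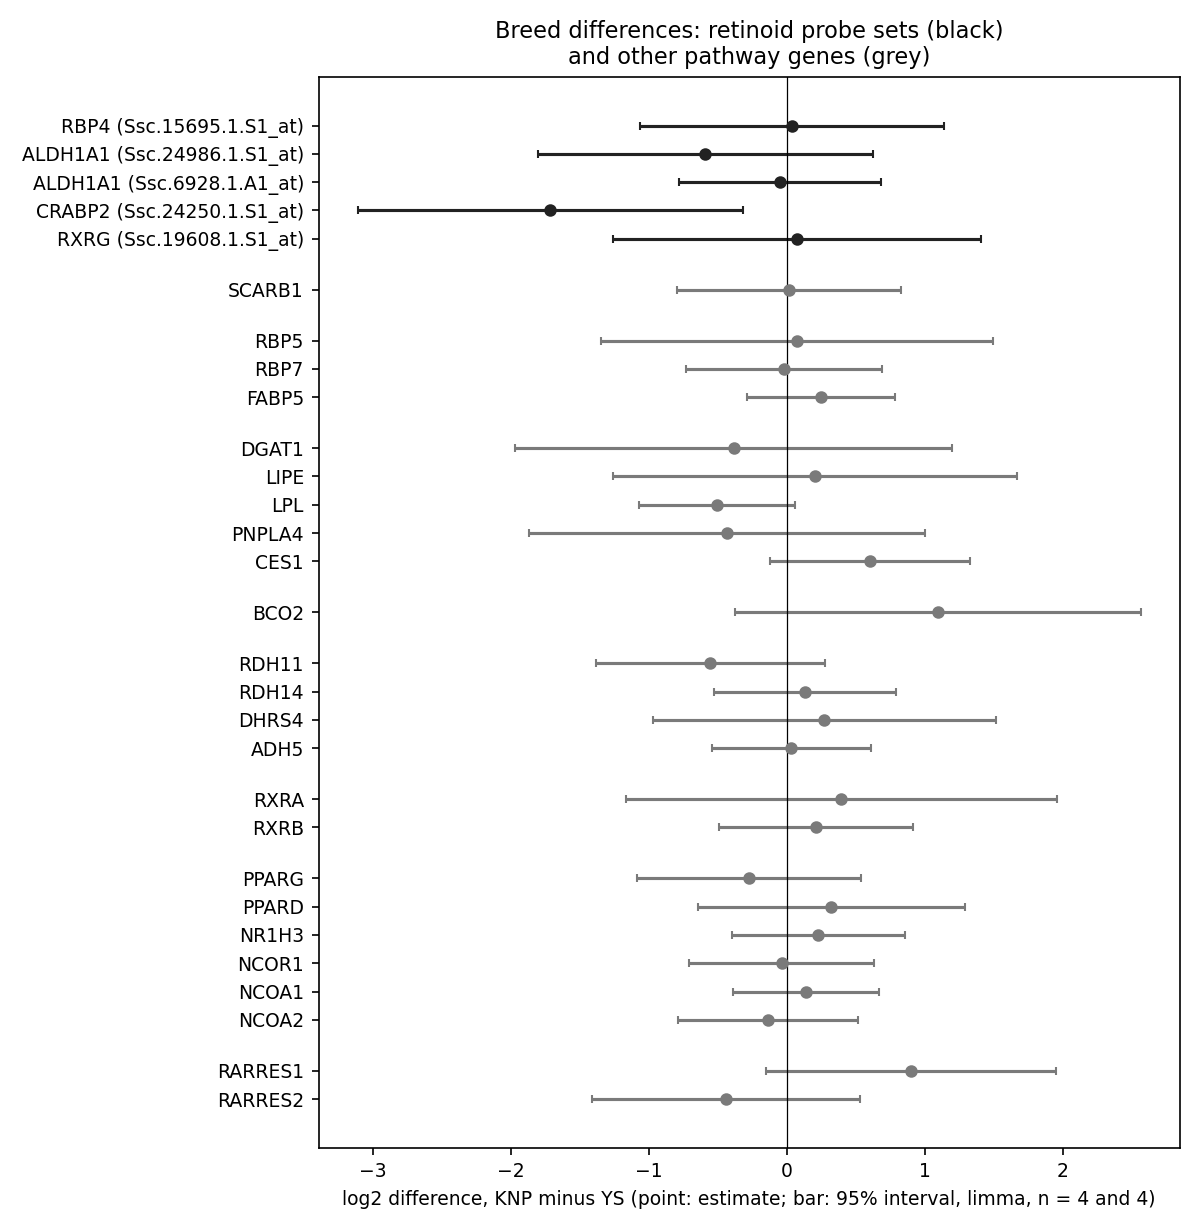
Log2 difference, KNP minus YS, with its 95% interval from limma (n = 4 and 4), for the 5 tested member probe sets in black and the 24 tested genes of the other retinoid lists in grey, grouped by list. The interval of CRABP2 is the one that does not hold 0, and its adjusted p was 0.99984.

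Among the transport and binding proteins, the retinol-binding protein RBP7 had log2 means of 10.36 ± 0.35 for KNP and 10.38 ± 0.48 for YS (SD, n = 4), a difference of -0.02 ± 0.32 (SE). TTR, transthyretin, the plasma partner of RBP4, was above the no-target level on 3 arrays and was left out of the test. STRA6 had no single-symbol probe set. Of the enzymes, RDH10, DHRS3 and CYP26B1 likewise had none, and CYP26A1, which degrades retinoic acid, was above the no-target level on 1 array, YS replicate 1, at 81.2.

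The other RXR receptors did not pass the test. RXRB was above the no-target level on all 8 arrays, at 8.21 ± 0.42 in KNP and 8.00 ± 0.40 in YS, a difference of 0.21 ± 0.31 (SE). The brighter of 2 RXRA probe sets exceeded that level on 5 arrays, with a difference of 0.40 ± 0.69, and the other on 0 arrays. RARB, itself a target of retinoic acid, had 2 probe sets that were above it on 3 arrays and 1 array and differed in sign, and neither was tested. RARG had no single-symbol probe set. PPARG, the partner of RXR in fat cells, was at 11.51 ± 0.65 in KNP and 11.78 ± 0.33 in YS, a difference of -0.27 ± 0.36 (SE).

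Genes named for their response to retinoic acid had differences of both signs. RARRES1 had log2 means of 9.19 ± 0.86 for KNP and 8.29 ± 0.57 for YS (SD, n = 4), a difference of 0.90 ± 0.47 (SE) that did not pass. Its other probe sets were at 0.74 and -0.51, so they did not share a sign. RARRES2, which encodes the fat cell hormone chemerin, was at 10.20 ± 0.47 and 10.64 ± 0.80, a difference of -0.44 ± 0.43 (SE). TGM2 had no single-symbol probe set.

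For the 3 members above the no-target level on all 8 arrays, the genes with the most similar pattern over the 8 arrays were sought among 4519 others that met the same condition, as a description without a test. ALDH1A1 (the brighter probe set) was followed most closely by ALDH1B1, a mitochondrial aldehyde dehydrogenase of the same family, with Pearson's r of 0.976, Spearman's rho of 0.976 and r of 0.977 without the 2 arrays farthest from the median. The ALDH1B1 signal was highest in KNP replicate 1, at 1510, and lowest in KNP replicate 3, at 391.8, and its breed difference was 0.02. SGF29 (r 0.970) and HSD17B12, an enzyme of fatty acid elongation (r 0.947), came next.

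RBP4 was followed by DCTN4 (r 0.952), the zinc transporter SLC39A7 (r 0.936) and the ribosomal protein gene RPL19 (r 0.919). Without YS replicate 4 and KNP replicate 4 these were 0.885, 0.869 and 0.710. RXRG was followed by the lipid phosphatase PLPP1 (r 0.938), DPH5 (r 0.930) and CDK2AP2 (r 0.930), and without KNP replicates 3 and 4 these were 0.810, 0.410 and 0.781. All genes share the scaling and RNA quality of an array, and each set of 3 was picked as the highest of 4519.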

How the data were processed

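The deposited table held 1 intensity per probe set and array, on a linear scale, for 24123 probe sets. Per the labels, biotin-labelled total RNA was hybridised to the GeneChip Porcine Genome Array by the manufacturer's protocol. The trimmed mean (2% at each end) was 500 on every array, read from the values. How probes were summarised is not given in sources used here, and there were no detection calls. Arrays carry no counts, so their number limits the precision.

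The scaling was kept, 124 control probe sets and the lowest 25% of the others by mean were left out, and log2(signal + 16) was compared between breeds with limma 3.58.1 in R 4.3.3 (lmFit, eBayes, no covariate, two-sided, Benjamini-Hochberg over 17999 probe sets), a fit checked on simulated data. A gene with several probe sets was represented by that with the highest mean. Names came from the platform's annotation, which can be old: 9989 of 10099 single-symbol entries matched RefSeq by Entrez identifier and 0 symbols changed. No coordinates are given, since the annotation used here places no probe set.

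Members and lists were chosen with earlier results of these data known. All member probe sets are described, and further retinoid genes were named by a fixed list whatever their values, of which 1 is not reported here. Similar patterns were the 3 genes of highest Pearson's r. Marker lists also covered endothelium, myeloid, T and NK, red blood, nerve and mesothelial cells; with fibroblast, smooth muscle, muscle, keratinocyte and adipocyte markers, 0 genes passed. Below an unadjusted p of 0.05 in limma were 1 of 8 fibroblast markers and 2 of 6 T and NK cell markers tested, lower in KNP. So was 1 of 6 smooth muscle markers, higher in KNP, and no marker of the other lists. The share over all probe sets tested was 2.84%. Among the tested markers MFAP5, CCL5 and LPL were wholly lower in KNP, while 1.96% of all probe sets tested were wholly separate. Alternatives covered filter, scaling, added constant, variance model, array weights, replicate block, 3'/5' covariate and arrays left out.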

Additional observations from a re-analysis of the deposited data

Results flagged for a closer look

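In 6 of 64 checks, on the signal and the log2 scale, 1 array of a breed stood far from the other 3. For normally distributed values chance does this in about 1 of 20. On the log2 scale only the dim RBP4 probe set was flagged. The scales of a value are not independent checks, so no excess was read from the count. The RXRG signal of 1185 in KNP replicate 3 compares with 122.8 to 273.4 on the other KNP arrays. The dim RBP4 probe set read 114.7 in YS replicate 2 (7.03 as log2) against 13.6 to 15.7 on the other YS arrays. In YS, RARA read 53.1 in replicate 1, CYP26A1 81.2 in replicate 1 and RARB 76.9 in replicate 3. The other YS arrays read at most 27.8, 24.3 and 19.6, in the background. The RARA value of 53.1 was in the background too, below the no-target level of 78.5 of YS replicate 1.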

How the results depend on the processing

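No member probe set, no other retinoid gene and no probe set at all passed in any alternative run (0 in each of 19 settings, and for the other retinoid genes also 0 when the probe sets of each gene were averaged). The smallest adjusted p of a member was 0.470, for CRABP2 without the arrays of the 3 highest 3'/5' differences, an alternative chosen after seeing the data. CRABP2 kept its sign in 18 settings, between -2.32 and -1.13, and an unadjusted p under 0.05 in 15 of them; the exceptions were the fits without KNP replicate 1 (0.0594), KNP replicate 4 (0.0581) and YS replicate 1 (0.0529), and with the lowest 50% left out it was not tested. RBP4 changed sign with the 3'/5' covariate (-0.058), with array weights (-0.41) and without the 3 arrays (-0.76), and with 1 array left out it ran from -0.35 to 0.37; the cause was not tested. With 1 array left out the brighter ALDH1A1 probe set ran from -0.19 to 0.19, the dimmer from -0.97 to -0.26, CRABP2 from -2.31 to -1.25 and RXRG from -0.57 to 0.47. The count of all probe sets at an unadjusted p under 0.05 was 511 in the fit reported and 784 without KNP replicate 1, 877 with the 3'/5' covariate, 884 without YS replicate 4, 975 with array weights and 1516 without the 3 arrays. Replicate numbers were not treated as pairs in the fit reported. Same-numbered arrays deviated together with r from -0.19 to 0.13, and 0 of 4 KNP arrays correlated best with its own number. These 4 values cannot exclude a pairing, since RNA quality and muscle signal also differed between arrays. With the replicate block 0 probe sets passed, 0 members and 0 other retinoid genes among them.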
